A study of Mus musculus with 6 samples.

Results

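The UDP glucuronosyltransferases of the 2 and 3 families were examined in the livers of mice that had undergone vertical sleeve gastrectomy (VSG, surgery in which the greater part of the stomach is taken out) or a sham procedure. The 10 genes were taken by name (Ugt2a3, Ugt2b1, Ugt2b5, Ugt2b34, Ugt2b35, Ugt2b36, Ugt2b37, Ugt2b38, Ugt3a1 and Ugt3a2) out of 55385 genes in the count table, and no threshold on a measured value set the list. All 10 had a row and all 10 passed the filter on low counts. Poly(A)-selected liver RNA was sequenced from 6 male mice, 3 sham-operated and 3 VSG-operated. The study's methods describe the mice as wild-type C57BL/6 animals and name no transgene or deletion for them. Both groups began a high-fat diet (HFD) at an age of 6 to 8 weeks, ate it for 10 weeks before the operation and for 12 weeks after it, and so differed by the operation alone as labelled. The labels number the sham libraries 1 to 3 and the VSG libraries 4 to 6. The methods give 3 mice a group, and no repeat of the operation in other cohorts is labelled, so p-values measure the spread between these 6 livers.

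UGTs sit in the membrane of the endoplasmic reticulum and join a sugar from a UDP-sugar donor to small fat-soluble molecules, which makes them water-soluble and ready for export into bile or urine. UGT2 enzymes use UDP-glucuronate, and in the liver the UGT2B enzymes are known for handling androgens, bile acids, fatty acids and drugs such as morphine. UGT3 enzymes differ in their donors: UGT3A1 is known to use UDP-N-acetylglucosamine, and UGT3A2 UDP-glucose and UDP-xylose.

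The 8 UGT2 members lay side by side on chromosome 5 (GRCm38), from the first base of Ugt2b34 at 86889767 to the last base of Ugt2b38 at 87424203. In order along the chromosome they were Ugt2b34, Ugt2b1, Ugt2b35, Ugt2b36, Ugt2b5, Ugt2b37, Ugt2a3 and Ugt2b38, all on the minus strand except Ugt2b35. Ugt2a2 and Ugt2a1, UGT2 genes known from the olfactory epithelium, followed next to Ugt2b38 and had 0 counts in every library. These 2 genes overlap on the same strand, and 93.6% and 97.0% of their stretches of 50 bases also occur in another gene. How reads with several matches were treated is not stated, so their 0 counts need not mean absence. The 2 UGT3 genes were neighbours on the plus strand of chromosome 15, Ugt3a1 from 9276888 to 9315032 and Ugt3a2 from 9335550 to 9370955. All 10 are protein-coding genes in GENCODE M21, and their coordinates in the count table were those of that release.

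Copies that are nearly alike can draw each other's reads, so the coding sequences were compared first. The coding sequence of Ugt2b5 was 97.0% identical to that of Ugt2b38 and 94.7% identical to that of Ugt2b37. It was 88.4% identical to that of Ugt2b36, 87.9% to that of Ugt2b35 and 71.3% to that of Ugt2b34. Ugt3a1 and Ugt3a2 were 93.3% identical, and a UGT2 and a UGT3 gene shared between 53.7% and 57.2% of their aligned bases. A stretch of 60 coding bases, on which Ugt2b38 cannot be told from Ugt2b5 while the other copies can, is printed to show this. Capitals mark bases that differ from Ugt2b5 in the aligned column. Each stretch is coding sequence of exon 1, and the coordinates are those of GRCm38 on chromosome 5, with the sequence read along the strand of the gene. The stretch lies at chr5:87139996-87140055 (minus) in Ugt2b5, chr5:87423861-87423920 (minus) in Ugt2b38, chr5:87254460-87254519 (minus) in Ugt2b37, chr5:87001143-87001202 (plus) in Ugt2b35, chr5:87092214-87092273 (minus) in Ugt2b36 and chr5:86906604-86906663 (minus) in Ugt2b34.
Ugt2b5: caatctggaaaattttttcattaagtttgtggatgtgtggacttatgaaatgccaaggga
Ugt2b38: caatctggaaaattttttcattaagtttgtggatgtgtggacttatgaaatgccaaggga
Ugt2b37: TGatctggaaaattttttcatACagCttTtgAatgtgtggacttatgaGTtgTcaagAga
Ugt2b35: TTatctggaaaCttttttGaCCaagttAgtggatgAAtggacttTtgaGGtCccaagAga
Ugt2b36: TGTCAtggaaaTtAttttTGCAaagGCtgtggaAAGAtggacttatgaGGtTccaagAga
Ugt2b34: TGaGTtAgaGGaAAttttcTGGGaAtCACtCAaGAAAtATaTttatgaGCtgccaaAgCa
The stretch differed from Ugt2b5 at 0 bases in Ugt2b38, at 11 in Ugt2b37, at 14 in Ugt2b35, at 21 in Ugt2b36 and at 30 in Ugt2b34.

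Over whole transcripts, the share of 50-base words that also occurred in a transcript of another gene, on either strand, was 41.7% for Ugt2b5, 37.4% for Ugt2b38 and 18.3% for Ugt2b37. For Ugt2b5 most of these words were shared with Ugt2b38. The share was 7.60% for Ugt3a1 and 7.01% for Ugt3a2, mostly with each other, and 4.55% for Ugt2a3. It was 1.44% for Ugt2b34, 0.303% for Ugt2b35, 0.285% for Ugt2b36 and 0 for Ugt2b1. The counts of Ugt2b34, Ugt2b35, Ugt2b36 and Ugt2b1 therefore rest almost entirely on sequence of their own. The counts of Ugt2b5, Ugt2b37 and Ugt2b38 depend on how reads with several matches were treated, which the sources do not state, and the values of these 3 genes are uncertain to that extent.

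**Figure D1:**
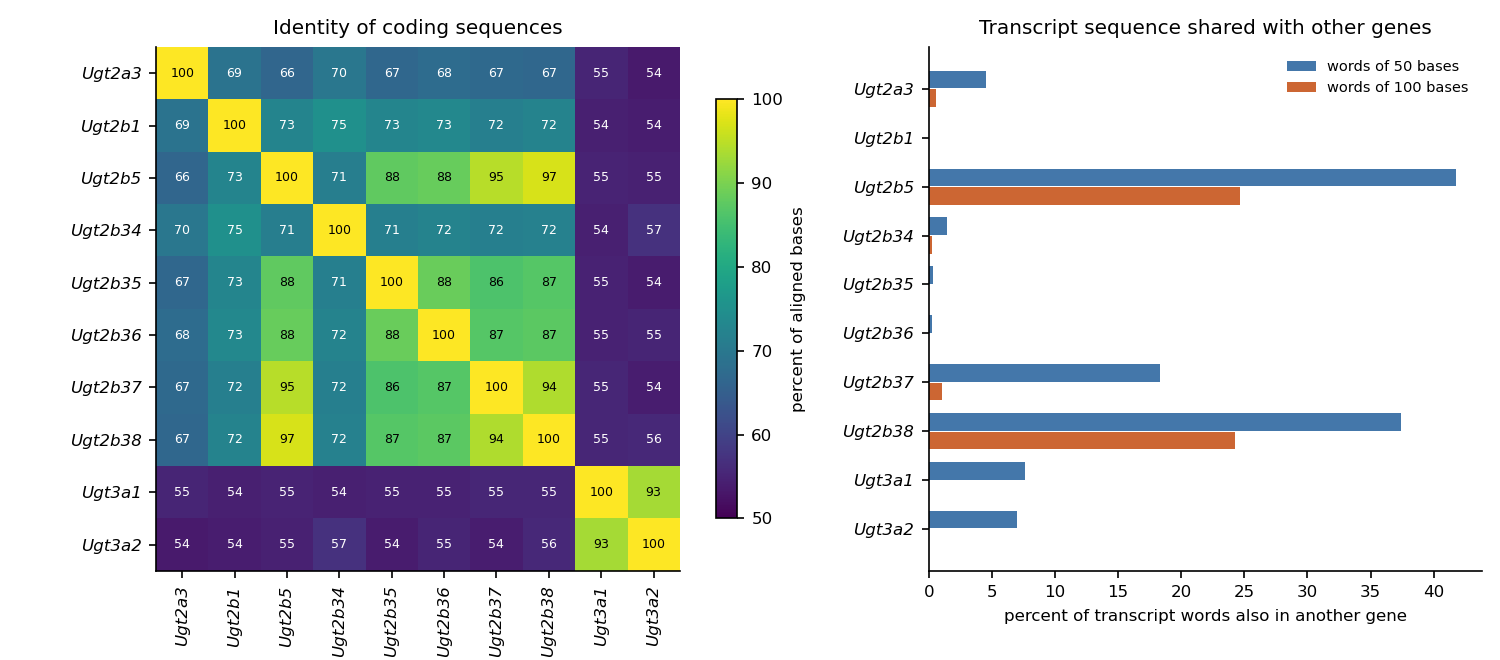
Left: percent identity of the aligned coding bases for each pair of the 10 genes (color scale from 50 to 100). Right: percent of the words of 50 bases (blue) and 100 bases (orange) of each gene's transcripts that also occur in a transcript of another gene. Ugt2b5, Ugt2b37 and Ugt2b38 stand out in both panels, and Ugt2b1 shares no word.

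The sequence upstream of the start sites is shown for Ugt2b5, for its near copies Ugt2b37 and Ugt2b38 and for Ugt2b36, the most abundant member, because these windows were the most like that of Ugt2b5. The windows hold the 100 bases before the RefSeq start of each gene on GRCm38.p6, which is not in every case the GENCODE start. Of the 10 genes, 9 had an entry in the RefSeq promoter table, and Ugt3a2 had none. Capitals mark bases that differ from Ugt2b5 where the windows could be set side by side without gaps. The windows lie at chr5:87140341-87140440 (minus) for Ugt2b5, chr5:87254789-87254888 (minus) for Ugt2b37, chr5:87424204-87424303 (minus) for Ugt2b38 and chr5:87092556-87092655 (minus) for Ugt2b36.
Ugt2b5: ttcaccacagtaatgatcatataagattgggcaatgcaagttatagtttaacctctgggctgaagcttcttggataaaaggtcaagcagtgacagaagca
Ugt2b37: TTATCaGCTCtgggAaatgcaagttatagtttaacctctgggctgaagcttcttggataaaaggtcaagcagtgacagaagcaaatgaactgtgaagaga
Ugt2b38: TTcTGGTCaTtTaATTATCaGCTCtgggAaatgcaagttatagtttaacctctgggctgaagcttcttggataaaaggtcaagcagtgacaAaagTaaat
Ugt2b36: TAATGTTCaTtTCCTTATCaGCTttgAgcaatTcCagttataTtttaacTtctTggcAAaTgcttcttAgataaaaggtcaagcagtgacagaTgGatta
Ugt2b37 and Ugt2b5 had 88.0% of 83 bases in common (10 differed), Ugt2b38 and Ugt2b5 77.3% of 97 bases (22 differed), and Ugt2b36 and Ugt2b5 67.0% of 97 bases (32 differed). The levels of Ugt2b37 and Ugt2b38, given further on, were far below those of both others. The upstream windows of Ugt2b1, Ugt2b34, Ugt2b35, Ugt2a3 and Ugt3a1 had between 35.8% and 55.6% of their bases in common with Ugt2b5.

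Total counts ran from 22804397 to 24191778 per library. The liver label held: the 7 hepatocyte markers measured (among them Alb and Apob) had a summed level from 56337 to 112234 CPM (counts scaled by the size of the library), and edgeR called 0 of 7 (1 at an unadjusted p under 0.05; DESeq2 called 1 and limma 0). The 9 neutrophil markers all rose after VSG by edgeR, from a sum of at most 14.3 CPM in a sham library to between 147 and 1818 CPM in the VSG libraries (DESeq2 called 9, limma-voom 3 and limma on log2(FPKM + 1) 7). Without sham library 2, sham library 3 or VSG library 6, edgeR called 1 of the 9. With at least 10 counts required in every library, 2 of the 9 could be tested and 2 were called. The others passed the low-count filter through the VSG libraries alone, so they could hardly come out lower. At an adjusted p under 0.05, 14.7% of the 14454 genes tested passed, 7.87% as lower and 6.79% as higher after VSG.

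Levels of different genes were compared as FPKM (fragments per kilobase of exon, corrected for library size with TMM factors). Ugt2b36 was the most abundant of the 10 genes in all 6 libraries, with a mean of 280 ± 64.9 FPKM (SD, n = 6). Ugt2b5 followed at 189 ± 57.9 and Ugt3a2 at 158 ± 35.5 FPKM. Then came Ugt2b34 at 110 ± 40.5, Ugt2b1 at 77.8 ± 32.4, Ugt2b35 at 72.3 ± 17.3 and Ugt2a3 at 69.0 ± 33.4 FPKM. Ugt3a1 was lower at 21.8 ± 5.42 FPKM. Ugt2b37 at 0.565 ± 0.399 and Ugt2b38 at 0.180 ± 0.226 FPKM were barely detected. In this order of levels, the range over the 6 libraries separated Ugt3a1 from Ugt2b37, and every other pair of neighbours had ranges that overlapped. Within each library, however, Ugt2b36 stood above Ugt2b5, Ugt2b34 above Ugt2b1 and Ugt2a3 above Ugt3a1 in 6 of 6 libraries. Ugt2b1, Ugt2b35 and Ugt2a3 changed places with each other, each pair of neighbours being ordered this way in 3 of 6.

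None of the 10 genes passed an adjusted p of 0.05 by edgeR's quasi-likelihood test, against 14.7% of all genes tested. Unadjusted, 3 of the 10 were under 0.05 (Ugt2b34, Ugt2b35 and Ugt2b36), near the 33.9% of all genes that were. DESeq2 called 2 of them, where it called 22.8% of all genes, while limma-voom and limma on log2(FPKM + 1) called 0 of the members and 12.9% of all genes each. The log2 fold change of VSG over sham was negative in 7 of 10 genes, with a median of -0.47 against 0.03 over all genes tested. The median of the members was -0.24 without VSG library 4, -0.28 without sham library 2 and -0.65 without VSG library 5. In 3 of 10 genes the VSG libraries lay entirely below the sham libraries, where 19.8% of all genes tested did so. In liver tissue as a whole, fewer cells of a type and less RNA per cell cannot be told apart.

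**Figure D2:**
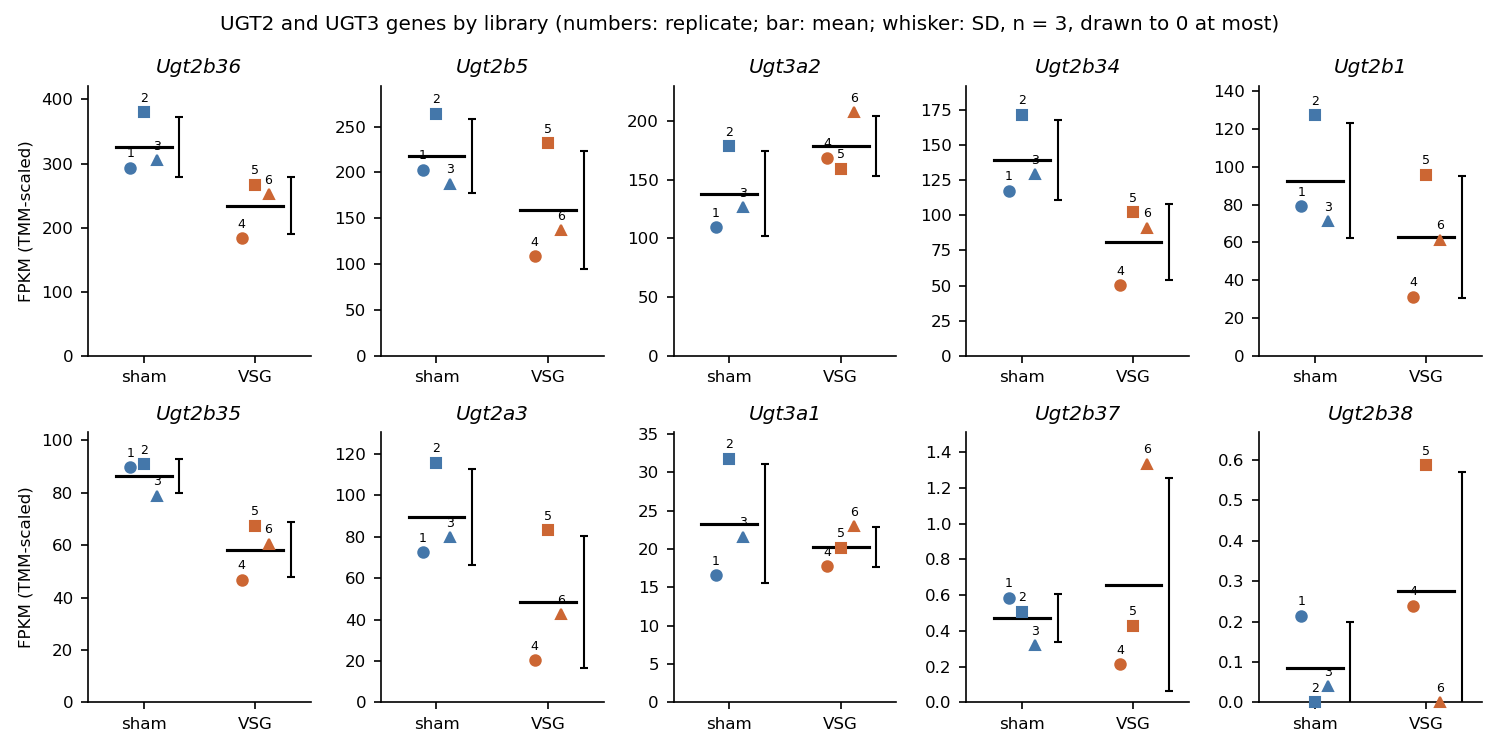
FPKM of each of the 10 genes in the 3 sham (blue) and 3 VSG (orange) libraries, with the library number at each point, a bar at the mean and a whisker of 1 SD (n = 3) that is drawn to 0 at most. Each panel has its own scale. Ugt2b36, Ugt2b34 and Ugt2b35 have no overlap between the groups, and VSG library 4 is the lowest of the 6 in the 6 most abundant UGT2 genes.

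Among the UGT2 members, Ugt2b35 came closest to the threshold. Its level was 89.6, 90.8 and 78.8 FPKM in the sham livers and 46.8, 67.4 and 60.5 FPKM in the VSG livers. All 3 VSG values lay below the lowest sham value, and the sham values lay close together. The mean went from 86.4 ± 6.59 to 58.3 ± 10.5 FPKM, a log2 fold change of -0.57 (SE 0.164, 95% interval -0.96 to -0.18, adjusted p 0.0621 by edgeR). DESeq2 gave the same gene an adjusted p of 0.0108, and edgeR on total counts 0.0396 in a fit that called 13.8% of all genes. Ugt2b35 passed under 3 of 13 alternatives in all, and its adjusted p by edgeR reached 0.154 when 1 library was left out.

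For Ugt2b34, which lies at the other end of the cluster from Ugt2b38, the 3 sham livers held 117, 171 and 129 FPKM. The VSG livers held 50.3, 102 and 90.9 FPKM. Again no VSG library reached the lowest sham library. The mean was 139 ± 28.5 FPKM in sham and 81.0 ± 27.2 FPKM after VSG, with a log2 fold change of -0.78 (SE 0.292, 95% interval -1.48 to -0.09, adjusted p 0.114). With DESeq2 the adjusted p was 0.0436, and this was the 1 alternative of 13 that passed.

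Ugt2b36, the most abundant of the 10, was at 293, 380 and 306 FPKM in sham livers. It was at 184, 267 and 252 FPKM in VSG livers, so that VSG library 5 at 267 and sham library 1 at 293 were the nearest values of the 2 groups. The mean went from 326 ± 46.9 to 234 ± 44.5 FPKM (log2 fold change -0.48, SE 0.198, 95% interval -0.95 to -0.01, adjusted p 0.144). No alternative brought Ugt2b36 past the threshold, and its lowest adjusted p was 0.0628 on total counts.

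Ugt2b5, Ugt2b1 and Ugt2a3 had lower means after VSG with groups that overlapped, and in each of them VSG library 5 was the one within the sham range. Ugt2b5 was at 203, 264 and 188 FPKM in sham and at 109, 232 and 137 FPKM in VSG livers. Its log2 fold change was -0.45 (SE 0.298, adjusted p 0.316), and moved to -0.24 without VSG library 4 and to -0.85 without VSG library 5. Adding the near copies Ugt2b37 and Ugt2b38 gave 219 ± 40.4 against 160 ± 64.4 summed FPKM, with little added by these 2 genes.

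Ugt2b1 was at 79.3, 127 and 71.3 FPKM in sham and at 31.3, 95.9 and 61.5 FPKM in VSG livers, a log2 fold change of -0.56 (SE 0.415, adjusted p 0.375). That log2 fold change was -0.23 without VSG library 4, -0.26 without sham library 2 and -1.01 without VSG library 5. Ugt2a3, whose human counterpart glucuronidates bile acids, was at 72.5, 116 and 79.8 FPKM in sham and at 20.3, 83.2 and 42.6 FPKM in VSG livers. Ugt2a3 had the most negative log2 fold change of the 10, -0.87, and the widest spread among the abundant genes (SE 0.479, 95% interval -2.01 to 0.26, adjusted p 0.241). This rank and size depend on single libraries: the log2 fold change of Ugt2a3 was -1.52 without VSG library 5 and -0.50 without VSG library 4, where that of Ugt2b34 was -0.53. Without VSG library 5, Ugt2a3 (adjusted p 0.0399), Ugt2b5 (0.0418) and Ugt2b35 (0.0390) passed the threshold and the other 7 members did not, in a fit that called 18.4% of all genes.

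Ugt2b37 and Ugt2b38 were near the limit of detection, and neither their level nor their direction could be settled at this depth. The sham libraries held 30, 21 and 16 counts of Ugt2b37 and the VSG libraries 9, 19 and 53 (log2 fold change 0.48, SE 0.652, adjusted p 0.630). VSG library 6 alone held the high value, and without it the log2 fold change of Ugt2b37 was -0.54. Counts of Ugt2b38 were 11, 0 and 2 in the sham and 10, 26 and 0 in the VSG libraries (log2 fold change 1.62, SE 1.28, adjusted p 0.400). A library with 0 counts allows up to 3 counts, or 0.137 CPM in sham library 2 and 0.143 CPM in VSG library 6, for counting error only.

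Ugt3a2 was the 1 abundant gene of the 10 with a higher mean after VSG. It was at 110, 178 and 126 FPKM in sham and at 169, 159 and 207 FPKM in VSG livers. Its groups overlapped through sham library 2 alone, which was above VSG libraries 4 and 5. The mean went from 138 ± 35.8 to 178 ± 25.5 FPKM (log2 fold change 0.37, SE 0.220, 95% interval -0.15 to 0.89, adjusted p 0.274). Ugt3a1 was at 16.6, 31.8 and 21.6 FPKM in sham and at 17.8, 20.2 and 23.01 FPKM in VSG livers (log2 fold change -0.20, SE 0.238, 95% interval -0.76 to 0.37, adjusted p 0.583). Here too sham library 2 was the highest, and without it the log2 fold change of Ugt3a1 was 0.09.

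**Figure D3:**
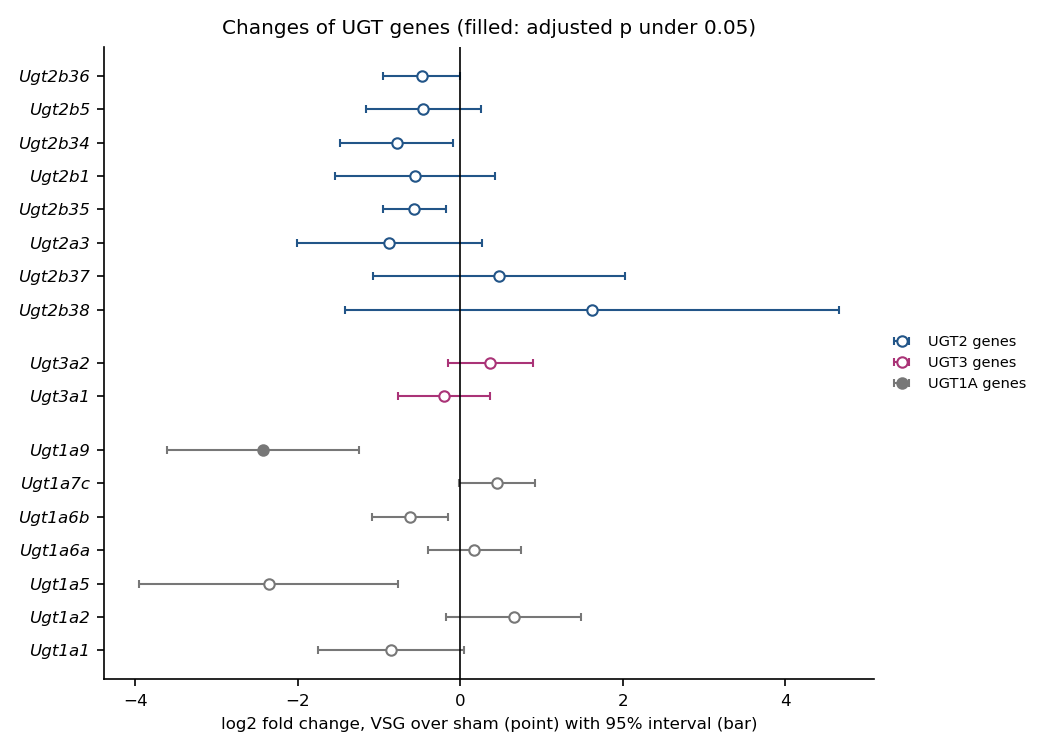
Log2 fold change of VSG over sham (x axis) with its 95% interval for the 8 UGT2 genes (blue), the 2 UGT3 genes (purple) and the 7 UGT1A genes tested (gray). A filled point marks an adjusted p under 0.05, which Ugt1a9 alone reached; the intervals of Ugt2b34, Ugt2b35 and Ugt2b36 end below 0, as do those of Ugt1a9, Ugt1a5 and Ugt1a6b.

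Summed over the 8 UGT2 members, the level was 856, 1150 and 853 FPKM in sham and 442, 848 and 646 FPKM in VSG livers. The groups did not overlap, but the highest VSG library was within 5 FPKM of the lowest sham library. The mean sum was 953 ± 171 FPKM in sham and 645 ± 203 FPKM in VSG livers. The 2 UGT3 genes together gave 126, 210 and 148 FPKM in sham and 186, 179 and 230 FPKM in VSG livers. As a result the sum of all 10 genes overlapped between the groups, at 1114 ± 213 FPKM in sham and 844 ± 202 FPKM in VSG livers. No test was made on these sums.

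The make-up of the UGT2 and UGT3 transcript pool could be read within each library, where the scaling between libraries has no part. Ugt3a2 made up 11.2%, 13.1% and 12.6% of the summed FPKM in sham livers. In the VSG livers it made up 26.8%, 15.5% and 23.7%. All 3 VSG values were above all 3 sham values, and the spread was wider after VSG. Ugt3a2 ranked at place 4, 3 and 4 among the 10 genes in the sham libraries and at place 2, 3 and 2 in the VSG libraries. Ugt2b36 kept a similar share, 29.5% ± 1.35 in sham and 28.0% ± 1.76 in VSG livers. Ugt2b34 held 12.5% ± 0.501 in sham and 9.43% ± 1.26 in VSG livers, also without overlap. The ratio of the FPKM of Ugt3a2 to that of Ugt2b36 was 0.373, 0.469 and 0.414 in sham and 0.918, 0.597 and 0.822 in VSG livers. A ratio within a library shows that the 2 genes differed unequally, and it does not show which of them changed. These shares and ratios were compared by their values only, since 3 libraries against 3 cannot give an exact two-sided permutation p under 0.10.

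**Figure D4:**
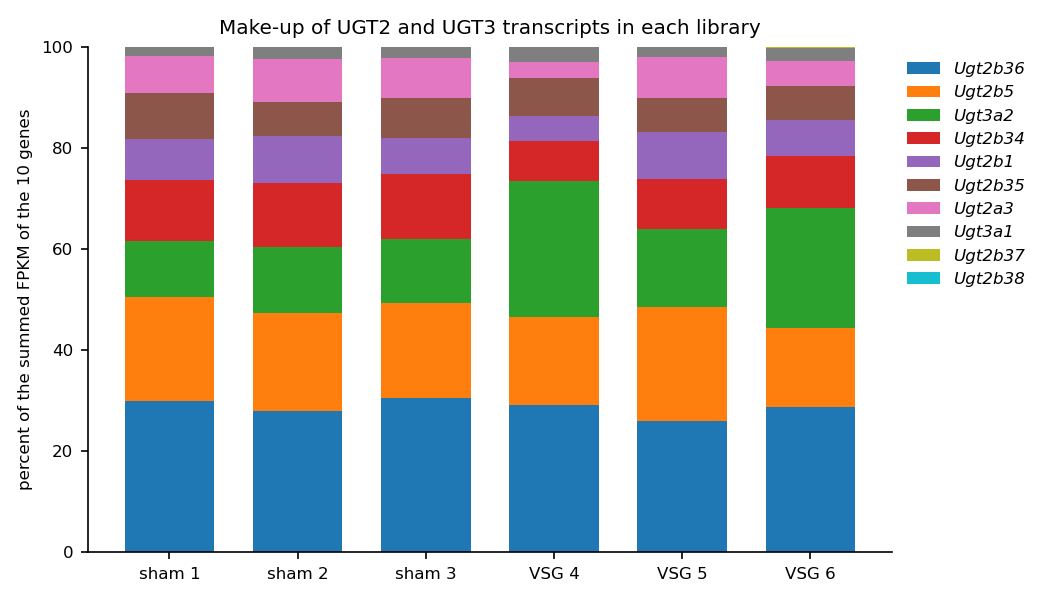
Share of each gene in the summed FPKM of the 10 genes (y axis, percent) in each of the 6 libraries. The share of Ugt3a2 (green) is 11.2% to 13.1% in sham and 15.5% to 26.8% in VSG livers, while that of Ugt2b36 (dark blue) is near 30% in sham libraries 1 and 3 and lowest in VSG library 5.

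Within the VSG group the 6 abundant UGT2 members ran in the same order. VSG library 4 was the lowest and VSG library 5 the highest for Ugt2a3, Ugt2b1, Ugt2b5, Ugt2b34, Ugt2b35 and Ugt2b36. Of the hepatocyte markers, Alb, Ttr, Serpina1b and Fabp1 had this order too, while Apoa1, Apob and Hnf4a did not. How many of all genes have this order, or its reverse, was not counted. Over all 6 libraries the Pearson correlation of log2 CPM between the 6 UGT2 members was between 0.851 and 0.996. It was highest for Ugt2b34 and Ugt2b36, which have no 50-base word in common. Ugt3a2 had a correlation with the same 6 genes between -0.50 and -0.11, and with Ugt3a1 of 0.54. These correlations are descriptions over 6 libraries of 2 groups, which share the libraries and their scaling.

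The summed acute phase genes ran in the opposite order within the VSG group, as did 14 of the 15 genes, while Steap4 was highest in VSG library 6. By edgeR and DESeq2 all 15 were higher after VSG (limma-voom called 14 and limma on log2(FPKM + 1) 12), but edgeR called 1 of them without sham library 3, 5 without VSG library 6, 8 without sham library 2 and 10 without sham library 1. They summed to 20901, 18760 and 19500 CPM in sham livers and to 140421, 67663 and 118044 CPM in VSG libraries 4, 5 and 6. The sum of the neutrophil markers had the same order, with 1818, 147 and 839 CPM in VSG libraries 4, 5 and 6, and Mpo, a defining marker, had 0 counts in sham library 2. The 7 Kupffer cell and macrophage markers (3 higher after VSG, 1 without VSG library 4 and 0 without sham library 2 or 3 or VSG library 6) summed to 342 to 722 CPM in sham livers and to 2111, 727 and 1336 CPM in the same VSG libraries. VSG library 4, lowest in the 6 abundant UGT2 members, was thus highest in the sums of all 3 lists, and VSG library 5 was lowest in all 3 sums among VSG libraries. The 6 B and plasma cell markers (2 higher, the antibody genes Igkc and Jchain) went from between 16.2 and 19.1 CPM to between 122 and 164 CPM. Of the other marker lists, 1 of 7 stellate cell markers was lower and 1 of 5 bile duct cell markers higher, while edgeR called 0 of 5 T and NK cell, 0 of 6 sinusoidal endothelial cell and 0 of 6 erythroid cell markers (0, 0 and 1 at an unadjusted p under 0.05; 0, 0 and 1 by DESeq2; 0 by limma). DESeq2 called 6 of the 7 stellate cell markers, and edgeR 0 without sham library 1 or 3 or VSG library 6, 2 without VSG library 4 and 4 without VSG library 5. Neither limma fit called a bile duct cell marker, nor did edgeR without any 1 of the sham libraries or without VSG library 6. Among the hepatocyte markers the summed level was lowest in VSG library 4, at 56337 CPM, and highest in sham library 2, at 112234 CPM, which was also the library with the highest level of all 6 abundant UGT2 members. The part of these cells and of the acute phase in the UGT2 levels was not tested.

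The genes whose log2 CPM ran most like that of Ugt2b36, out of 9956 tested genes with a mean of at least 5 CPM and with the 10 members left out, were Ciart (Pearson r 0.997 over 6 libraries), Apopt1 (0.996), Ugt1a5 (0.995), Aasdhppt (0.995) and Azin1 (0.995). Ciart encodes a repressor of the circadian clock, and its level was 20.6 ± 14.7 CPM without and 5.16 ± 3.42 CPM with VSG (adjusted p 0.105). The genes that ran most against Ugt2b36 were Pbxip1 (-0.998), Slc7a7 (-0.997), Supt20 (-0.995), 6430548M08Rik (-0.995) and Traf7 (-0.993). None of these 10 genes passed edgeR's test, with adjusted p-values from 0.0604 for Ugt1a5 to 0.245 for Aasdhppt, while DESeq2 called Ugt1a5 (0.00175), Ciart (0.0181), Slc7a7 (0.0386) and 6430548M08Rik (0.0381). With so many genes and 6 libraries, values of this size are a description of the order of the libraries.

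Genes that work around the UGTs, and genes of sex bias and of the acute phase set beside them, were counted in lists by role, in which edgeR called 35 of 93 genes tested (18 higher, 17 lower), against 14.7% of all genes. All 18 higher genes were of the lists of acute phase (15) and male-biased genes (3). The split was 2 higher and 7 lower without sham library 3, 5 higher and 7 lower without VSG library 6, and 11 higher and 11 lower without sham library 2. In the lists that follow DESeq2 called 3 of the other UGT genes, 2 of the sugar donor, 3 of the cleavage and 4 of the transport genes, 2 of the regulators and 6 of the receptor targets, against 22.8% of all genes. The other UGT genes came first. Of 12 listed, 7 were tested, 1 was lower and 0 were higher, with a median log2 fold change of -0.62. Ugt1a9, of the phenol-handling group of UGT1A enzymes, fell from 12.9 ± 2.83 to 2.39 ± 1.71 FPKM (log2 fold change -2.43, SE 0.496, adjusted p 0.0267), a call that was lost without sham library 1, 2 or 3 or VSG library 6 (adjusted p up to 0.109). Ugt1a1, the bilirubin-conjugating enzyme and the UGT1A gene with the highest FPKM, was at 117 ± 39.6 and 64.9 ± 26.2 FPKM (adjusted p 0.163). Its level is not ranked against the members, since 80.2% of its 50-base words occur in another gene. Ugt1a5 was at 12.9 ± 8.59 and 2.52 ± 1.60 FPKM (adjusted p 0.0604, and 0.00175 by DESeq2), and Ugt1a6b at 20.3 ± 3.79 and 13.2 ± 2.64 FPKM (adjusted p 0.0768, and 0.0369 by DESeq2). UGT1A genes share their last exons, with between 52.1% and 80.2% of 50-base words common to another gene, so their division among these genes is uncertain in a way that of Ugt2b34, Ugt2b35 or Ugt2b36 is not.

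In the supply of sugar donors, 2 of 11 genes passed, and both were lower. Ugdh, which makes UDP-glucuronate, the donor of the UGT2 enzymes, fell from 42.0 ± 3.26 to 12.7 ± 2.999 FPKM (log2 fold change -1.73, SE 0.196, adjusted p 0.00732), and stayed past the threshold under all 13 alternatives. Ugp2, which makes the UDP-glucose from which UDP-glucuronate is formed, fell from 181 ± 12.0 to 66.1 ± 12.9 FPKM (log2 fold change -1.45, SE 0.180, adjusted p 0.00873). It was not past the threshold without sham library 3, at an adjusted p of 0.0524. Pgm1, a phosphoglucomutase one step before Ugp2, was at 83.3 ± 12.95 and 59.8 ± 11.9 FPKM (adjusted p 0.130). Slc35d1, a carrier of UDP-glucuronate into the endoplasmic reticulum, was at 23.05 ± 2.55 and 21.5 ± 4.34 FPKM (adjusted p 0.713), and the makers of UDP-N-acetylglucosamine (Gfpt1, Gnpnat1, Pgm3 and Uap1) did not pass either. Ugdh and Ugp2 had more negative log2 fold changes than all 10 members, though the difference between genes was not tested.

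In the list of glucuronide cleavage and glucuronate use, which also holds a nucleoside diphosphatase, 2 of 6 genes passed. Both were lower, and the median log2 fold change was -0.70. Entpd5, a nucleoside diphosphatase of the endoplasmic reticulum, fell from 116 ± 11.1 to 40.2 ± 10.4 FPKM (adjusted p 0.0121). Akr1a1, which reduces glucuronate, fell from 141 ± 15.6 to 84.3 ± 0.289 FPKM (adjusted p 0.0184). Both lost their calls without sham library 3 or VSG library 6, and Akr1a1 also without sham library 2 (adjusted p at most 0.0649 for Entpd5 and 0.0937 for Akr1a1). Gusb, the glucuronidase that splits glucuronides, was at 11.8 ± 1.51 and 9.62 ± 2.38 FPKM (adjusted p 0.307). The carriers of glucuronides gave 2 lower of 8 tested, with a median of -0.70. Abcc3, an exporter of glucuronides into blood, fell from 97.8 ± 17.6 to 31.4 ± 3.83 FPKM (log2 fold change -1.64, SE 0.185, adjusted p 0.00725) and kept its call under all 13 alternatives. Slco1a4, an uptake carrier, fell from 19.4 ± 5.09 to 3.31 ± 2.24 FPKM (adjusted p 0.0243). Abcc2, which exports glucuronides into bile, was at 134 ± 11.0 and 87.5 ± 22.7 FPKM (adjusted p 0.116, and 0.0388 by DESeq2).

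**Figure D5:**
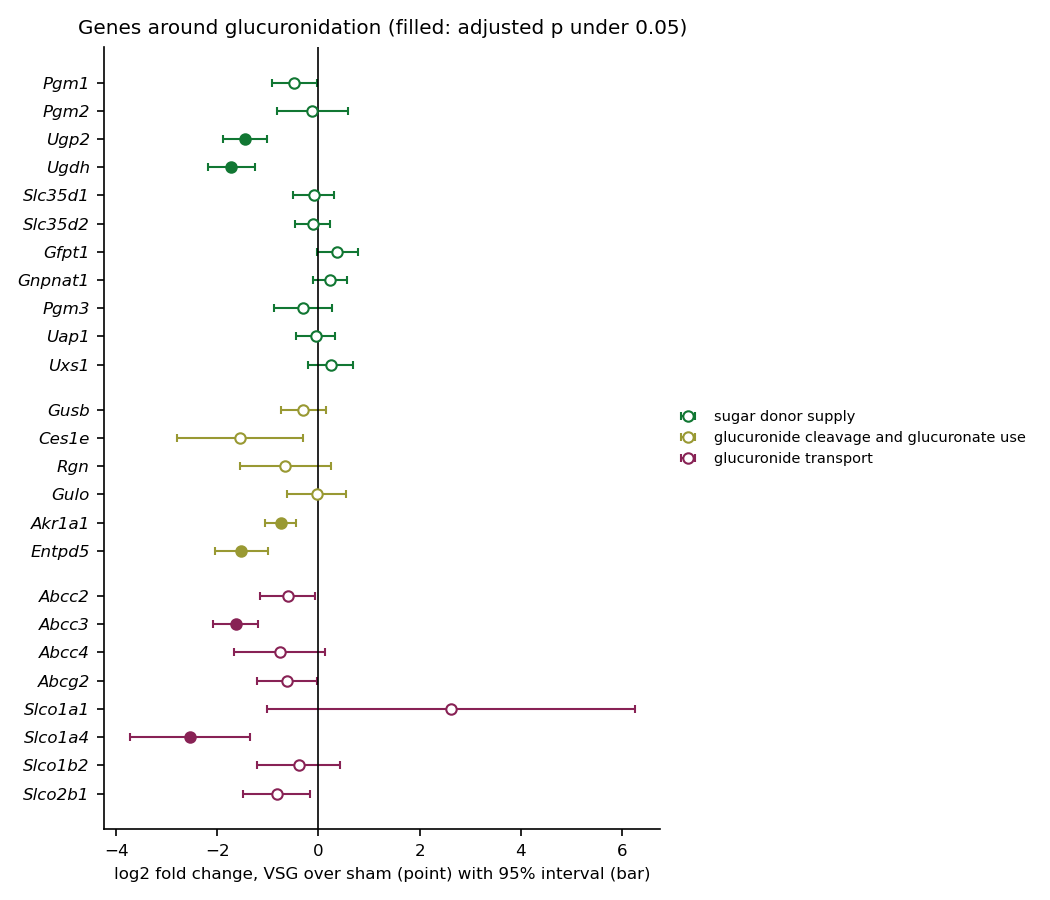
Log2 fold change of VSG over sham (x axis) with its 95% interval for genes of sugar donor supply, of glucuronide cleavage and glucuronate use (with the nucleoside diphosphatase Entpd5) and of glucuronide transport, 1 gene a line. Filled points mark an adjusted p under 0.05: Ugp2, Ugdh, Akr1a1, Entpd5, Abcc3 and Slco1a4, all of them below 0.

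Of 19 regulators tested, 1 was lower and 0 were higher, with a median log2 fold change of -0.09. Nr1i2, the nuclear receptor PXR that senses foreign compounds, fell from 38.4 ± 8.82 to 20.8 ± 2.88 FPKM (log2 fold change -0.88, SE 0.195, adjusted p 0.0322). It lost its call without sham library 2 or 3 or VSG library 4 or 6, with adjusted p-values of up to 0.125. The 3 most abundant regulators did not pass: Hnf4a at 125 ± 9.04 and 161 ± 27.3 FPKM (adjusted p 0.194), Cebpa at 107 ± 8.74 and 121 ± 22.6 FPKM (adjusted p 0.480) and Rxra at 72.1 ± 7.85 and 77.4 ± 11.3 FPKM (adjusted p 0.689). Of 11 targets of the xenobiotic and lipid receptors, 5 were lower and 0 higher, with a median of -1.27. edgeR called 2 of the 11 without sham library 3 and 2 without VSG library 6. Gstm1, a glutathione transferase, fell from 748 ± 104 to 146 ± 30.7 FPKM (adjusted p 0.00413), and Nqo1, a quinone reductase, from 12.2 ± 1.48 to 4.57 ± 0.272 FPKM (adjusted p 0.00429). Cyp3a11, the main target of PXR in mouse liver, fell from 353 ± 64.1 to 51.7 ± 37.3 FPKM (adjusted p 0.0216), and Cyp2c55 from 1.34 ± 0.409 to 0.134 ± 0.0847 FPKM (adjusted p 0.0142). Cyp2c55 passed the low-count filter through the sham libraries alone. Gclc went from 125 ± 6.24 to 63.3 ± 19.6 FPKM (adjusted p 0.0369). Cyp3a11 and Slco1a4 lost their calls without sham library 2 or 3 or VSG library 6, and Cyp2c55 without sham library 3 or VSG library 6 (adjusted p at most 0.0911, 0.0976 and 0.0699). Against these, the members' median of -0.47 came with 0 genes called. When 1 library was left out, that median ran from -0.65 to -0.24, with 0 to 3 members called.

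Several UGT2B genes are known to differ between the sexes in rodents, so genes of known sex bias in liver were set beside them. Of 12 male-biased genes, 3 were higher and 0 lower, with a median log2 fold change of 1.203. They were C6, a complement component, at 27.8 ± 10.1 and 106 ± 20.0 FPKM (adjusted p 0.0134), Serpina1e, an antitrypsin, at 73.2 ± 69.3 and 3855 ± 942 FPKM (adjusted p 0.0154), and Mup7, a urinary pheromone carrier, at 2.52 ± 3.67 and 315 ± 263 FPKM (adjusted p 0.0346). The other 9 did not pass. Of these, 2 had a negative log2 fold change, Mup20 (-1.28, adjusted p 0.171) and Cyp4a12a (-1.25, adjusted p 0.266). Of 12 female-biased genes, 5 could be tested and 4 were lower. Cyp2a4 and Cyp2b13 passed the low-count filter through the sham libraries alone, so they could only come out lower. With at least 10 counts required in every library, 2 genes were tested, Cyp2b9 and Cyp2a22, and 2 were called. Cyp2b9 fell from 124 ± 74.3 to 1.42 ± 0.495 FPKM (adjusted p 0.00656), and Cyp2a22 from 22.6 ± 7.82 to 0.449 ± 0.417 FPKM (adjusted p 0.00696). Cyp2a4 and Cyp2b13 fell to at most 3 counts in each VSG library, from 1720, 266 and 432 counts and from 69, 468 and 511 counts in the sham libraries. The 15 acute phase genes had a median of 2.63. The 4 with the smallest adjusted p were Apcs at 94.96 ± 9.74 and 1544 ± 767 FPKM (adjusted p 0.00645), Fgg at 1016 ± 96.4 and 5091 ± 733 FPKM (0.00721), Saa1 at 52.9 ± 19.3 and 3095 ± 1848 FPKM (0.00783) and Fgb at 743 ± 89.4 and 3808 ± 403 FPKM (0.00783). Fgg, Saa1 and Fgb lost their calls without sham library 3 (adjusted p 0.0565, 0.0549 and 0.0612). Without VSG library 6 those of C6, Serpina1e, Mup7, Cyp2a4 and Cyp2b13 were lost, with an adjusted p over all alternatives of at most 0.0614, 0.0620, 0.133, 0.0604 and 0.102. Limma-voom did not call Mup7, Cyp2a4 or Cyp2b13, nor were C6, Mup7 and Cyp2b13 called without sham library 3, Mup7 without sham library 1 or Cyp2b13 without sham library 2. Cyp2b9, Cyp2a22 and Apcs kept their calls under all 13 alternatives.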

How the data were processed

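Poly(A)-selected RNA from 40 mg of liver per mouse was made into strand-specific libraries and sequenced by the authors in 6 samples, 3 sham and 3 VSG, grouped by title. The deposited table holds raw counts of reads for each gene. Named per the labels were FastQC 0.10.1, STAR 2.6.0 and featureCounts 2.0.3 on mm10. How strand was set and how reads with several matches were treated is not given in the sources used here. The deposited table also gave each gene's exon length, used for FPKM. Symbols came from GENCODE M21, in which 55144 of 55385 identifiers were found and 241 were not.

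The main test was that of edgeR 4.0.16, run in R 4.3.3 (filterByExpr with a minimum count of 10 and a minimum total of 15, TMM factors, glmQLFit and glmQLFTest with group as the only term, Benjamini-Hochberg adjustment over all 14454 genes). Where no tool is named, an adjusted p is from edgeR. The script was tested on simulated data first. A count of 3 was taken as the floor, which covers counting error only, while the 95% intervals of the fits carry the spread between livers. Alternatives were DESeq2 1.42.0, limma 3.58.1 (voom, or trend on log2(FPKM + 1)), RLE factors, total counts, 2 other filters and leaving out each library. With 3 against 3 no exact permutation test could go below 0.10.

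Coding sequences were cut from GENCODE M21 transcripts and aligned in pairs with Biopython 1.88, and for the printed stretch with MAFFT 7.526. The stretch was the 60 ungapped bases, identical in Ugt2b5 and Ugt2b38, with the most differences elsewhere. Nucleotide identity stands in for protein identity. Promoters are from RefSeq (GRCm38.p6).

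The members were listed by name, but they, the gene lists and the tests were chosen with earlier results of these data known. Named were all 10 members, up to 4 genes in each direction of each list by smallest adjusted p, the 3 most abundant genes of the lists of other UGTs, sugar donors and regulators, and the 5 genes most and least like Ugt2b36. Gusb, Abcc2, Slc35d1, Gclc, Mup20, Cyp4a12a and the single hepatocyte markers were named after their values were seen.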

Additional observations from a re-analysis of the deposited data

How the results depend on the processing

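No paired analysis was possible because the sham libraries are numbered 1 to 3 and the VSG libraries 4 to 6, so no number is shared. The count of members called, 0, was 2 with DESeq2 (Ugt2b34 and Ugt2b35), 1 on total counts (Ugt2b35) and 0 to 3 when 1 library was left out, the 3 being found without VSG library 5. Over all genes, 2118 calls became 3288 with DESeq2 and between 159 (without sham library 3) and 2732 (without VSG library 5) when 1 library was left out. The 35 calls of the surrounding lists became 9 to 38 by the same step, and were fewest without sham library 3, VSG library 6 (12) and sham library 2 (22). On total counts the median of all genes shifted by -0.14, and 486 genes were higher and 1512 lower, against 981 and 1137 with TMM factors. Of single genes, the log2 fold change reversed for Ugt2b37 without VSG library 6, for Ugt3a1 without sham library 2, and for Rxra on total counts (-0.027) and without VSG library 5. Leaving out 1 library gave -0.54 to 0.896 for Ugt2b37, -0.399 to 0.0866 for Ugt3a1 and -0.031 to 0.20 for Rxra, and none of these passed a test in either direction. The cause of these changes was not tested. With words of 100 bases in place of 50, the shared sequence was 24.7% for Ugt2b5, 24.2% for Ugt2b38, 1.06% for Ugt2b37, 0.595% for Ugt2a3, 0.278% for Ugt2b34 and 0 for Ugt2b35, Ugt2b36, Ugt3a1 and Ugt3a2, since a longer word is less often shared. Depth limits Ugt2b37 and Ugt2b38, whose highest counts in a library were 53 and 26.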
